A study of Mus musculus with 8 samples.

Results

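Peg10, Sgce and Asb4 in 1 region of mouse chromosome 6 and Mest and Copg2 in another were followed in embryos that hold cells without TET enzymes. These 5 genes are 5 of the 55422 features in the count tables, and each was taken by its symbol. They were chosen by a reading of earlier results from the same libraries, in which the difference between genotypes was already in view, so their differences between genotypes are given below as a description. Where a fit across all genes called one of the 5, the call is counted for completeness and is no independent evidence of a difference.

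Imprinted genes are expressed mainly or only from the copy inherited from 1 parent, and DNA methylation laid down in the egg or sperm marks which copy that is. The copy inherited from the father is the active copy of Peg10 and Sgce, which start next to each other and are read in opposite directions, and of Mest, whereas Asb4 is expressed from the mother's copy. TET enzymes oxidise methylated cytosine, a step in the removal of DNA methylation. Peg10 encodes a Gag-like protein derived from a retrotransposon and is needed for the placenta. Sgce encodes epsilon-sarcoglycan, a membrane protein related to the dystrophin-associated complex. Asb4 encodes an ankyrin repeat protein with a SOCS box, the part through which such proteins bring a substrate to a cullin 5 ubiquitin ligase. Mest, also known as Peg1, encodes a hydrolase-like protein and is abundant in embryonic mesoderm. Copg2 encodes a gamma subunit of the COPI coat of Golgi transport vesicles.

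The data are single-cell RNA-seq libraries from chimaeric mouse embryos at embryonic day (E) 7.5 and 8.5. The Tet-TKO cells descend from 1 line of embryonic stem cells of mixed C57BL/6J and 129Sv background, kept in 2i and LIF, with deletions of Tet1, Tet2 and Tet3 and a tdTomato-labelled histone H2B driven by the CAG promoter. They were injected into C57BL/6J blastocysts, which then developed in CD1 females, and the tdTomato-negative host cells of the same kind of embryos are the wild type (WT) host group. Embryos were pooled and live single cells were sorted as tdTomato-positive or tdTomato-negative. Tet-TKO cells filled 4 libraries at E8.5 and 1 at E7.5, and WT host cells 2 and 1. Injected stem cells enter trophoblast and extraembryonic endoderm poorly. Stem-cell origin, strain and the loss of TET enzymes go together in this design, so they cannot be told apart. The reads were not split by parental allele, and each level below is the sum of both copies. The labels do not tie libraries to separate pools of embryos, and the spread between libraries may be technical.

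The libraries held 65601218 to 136982886 unique molecular identifiers (UMIs, each standing for 1 captured RNA molecule) and gave 1008 to 9545 cells after filtering. The share of cells with a tdTomato UMI was 60.8 to 87.3% in Tet-TKO and 0.532 to 0.841% in WT host libraries. UMIs of Tet1, Tet2 and Tet3 were still counted in Tet-TKO cells (CPM below are counts per 1000000 UMIs). At E8.5 Tet1 stood at 9.92, 11, 20 and 20.9 CPM in Tet-TKO libraries 1 to 4 and at 22.6 and 20.4 CPM in host libraries. Tet2 stood at 5.99, 5.55, 10.5 and 9.73 against 4.67 and 4.63 CPM, above the host in each library. Tet3 stood at 23.5, 22.5, 37.5 and 36.5 against 23.1 and 23.2 CPM. All 3 genes were higher in Tet-TKO libraries 3 and 4 than in libraries 1 and 2. Tags at the 3′ end that lie outside a deletion do not test it. Tet-TKO libraries 1 and 2 resembled each other, as did libraries 3 and 4, and the pairs stood apart, with medians of 12178 and 18774 UMIs per cell in the first pair and 40400.5 and 68931 in the second. Levels are therefore given library by library. Any pair of libraries shared at most 28 cell barcodes, and at most 0.434% of those in the smaller library. Cells were clustered without the 5 genes, and each cluster was called "X-like" after marker genes or kept its number where the markers did not settle a name. UMIs were then summed per class and library and expressed as CPM. At E8.5, 31 classes had at least 10 cells in at least 2 libraries of each genotype.

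By the GENCODE M21 annotation of GRCm38 (mm10), Sgce lies on the minus strand of chr6:4674350-4747207 and Peg10 on the plus strand of chr6:4747306-4760517, with 99 bases between their 5′ ends. Asb4 lies 623 kb downstream of Peg10, on the plus strand of chr6:5383386-5433022. Mest, on the plus strand of chr6:30723547-30748465, begins 25.3 Mb further on. Copg2, on the minus strand of chr6:30747554-30896794, ends inside Mest, and the annotations share 912 bases on opposite strands. The assay keeps the strand, so these 3′ ends can be counted apart. The identifiers are ENSMUSG00000004631 for Sgce, ENSMUSG00000092035 for Peg10, ENSMUSG00000042607 for Asb4, ENSMUSG00000051855 for Mest and ENSMUSG00000025607 for Copg2.

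Promoter windows of 300 bases (250 before and 50 after a RefSeq start, build GRCm38.p6) are shown 5′ to 3′ on the gene's strand for Asb4, the gene of the 5 called in the most classes below, and for Mest and Copg2. CpG dinucleotides, the letters CG on either strand and the sites that carry most DNA methylation in mammals, are in capitals. The Asb4 window is chr6:5383136-5383435, the Mest window chr6:30737800-30738099 and the Copg2 window chr6:30896745-30897044.
Asb4: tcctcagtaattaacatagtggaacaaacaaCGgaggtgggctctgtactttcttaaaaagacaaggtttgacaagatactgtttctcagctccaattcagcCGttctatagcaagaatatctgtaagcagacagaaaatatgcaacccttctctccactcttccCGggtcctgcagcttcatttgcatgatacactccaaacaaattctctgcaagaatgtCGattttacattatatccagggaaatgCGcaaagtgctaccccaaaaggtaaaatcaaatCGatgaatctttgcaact
Mest: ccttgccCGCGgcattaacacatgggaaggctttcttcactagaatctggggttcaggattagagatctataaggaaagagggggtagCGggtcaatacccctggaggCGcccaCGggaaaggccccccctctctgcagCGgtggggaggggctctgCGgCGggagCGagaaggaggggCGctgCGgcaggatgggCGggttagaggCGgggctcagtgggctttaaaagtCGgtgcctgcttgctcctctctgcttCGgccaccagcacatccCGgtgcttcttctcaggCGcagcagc
Copg2: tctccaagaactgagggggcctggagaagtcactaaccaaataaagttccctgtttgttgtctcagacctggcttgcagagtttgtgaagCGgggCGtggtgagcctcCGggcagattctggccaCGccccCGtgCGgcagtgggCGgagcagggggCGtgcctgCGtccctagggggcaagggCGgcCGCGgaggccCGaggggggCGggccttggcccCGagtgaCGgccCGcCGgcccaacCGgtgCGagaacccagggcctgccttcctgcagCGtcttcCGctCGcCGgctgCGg
The Asb4 window held 6 CpGs, and 56.4% of all 32851 promoter windows of the same length held at least as many (median 7). A second Asb4 start, with the window chr6:5390160-5390459, held 8, a count reached by 48.6% of windows. The Mest window held 17 (31.4% of windows held at least as many), while another Mest start, with the window chr6:30733256-30733555, held 8 (48.6%). The Copg2 window held 25 (18.4%). No window was read for Peg10 or Sgce. Methylation itself was not analysed here.

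In WT host cells at E8.5 the 5 genes had different patterns over the 34 classes with at least 10 cells in both libraries. Asb4 was highest in allantois-like cells, at 142 and 185.6 CPM in the 2 libraries. Cardiomyocyte-like cells came next with 136.5 and 136.8 CPM, a step at which the library values did not overlap. Mesenchyme-like cells (mean 111.6 ± 27.55 CPM, SD, n = 2), cluster 10 (106.2 ± 41.12) and pharyngeal mesoderm-like cells (82.33 ± 2.469) followed, and neighbours in that order overlapped. The Asb4 order ended with blood progenitor-like cells (2.374 CPM) and extraembryonic (ExE) ectoderm-like cells (1.708 CPM). Cluster 10 is led by Pitx1, Hoxa13 and Hoxd10, transcription factor genes of the posterior embryo.

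Sgce was also highest in allantois-like host cells, at 224.5 and 244.9 CPM, which overlapped with no other class. Cluster 10 came next (mean 90.66 CPM), and of the classes below it only cluster 42, with few UMIs and host libraries at 21.56 and 92.22 CPM, reached its range. Peg10 was highest in cluster 39 (369.6 ± 116.2 CPM, SD, n = 2), whose cells had few UMIs, and in allantois-like cells (321.7 CPM), which overlapped with it. Cluster 10 (240.2 CPM) and ExE endoderm-like cells (230 CPM) overlapped next, and ExE ectoderm-like cells stood at 161 CPM. The lowest Peg10 level was in cluster 46 (2.817 CPM), led by Hbb-bs and other red cell genes. Both genes of the shared start region were thus highest among named classes in allantois-like cells, the precursor of the umbilical vessels.

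Mest was abundant in several mesoderm classes and in neural crest-like and forebrain-like cells, and was low in blood. Mesenchyme-like (2106 CPM), haematoendothelial progenitor-like (2019 CPM) and endothelium-like cells (1981 CPM) overlapped with each other and with cluster 39 (2126 CPM) at the top of the order. Allantois-like cells stood at 1489 CPM, neural crest-like cells at 1259 CPM and blood progenitor-like cells at 32.2 CPM. Copg2 ranged from 37.44 CPM in cluster 22, led by the pharyngeal endoderm genes Pax9 and Nkx2-3, and 37.2 CPM in notochord-like cells to 13.59 CPM in erythroid-like cells and 5.301 CPM in cluster 46. The level of one gene is not compared with that of another here, since each 3′ end is captured with its own efficiency.

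Over these 34 host classes, Pearson's r of log2(CPM + 1) was 0.826 between Asb4 and Sgce, 0.814 between Peg10 and Sgce, 0.725 between Asb4 and Mest, 0.669 between Asb4 and Peg10 and 0.129 between Asb4 and Copg2. Among 12381 genes, the 3 most like Asb4 were Dact3 (0.866), Pja2 (0.847) and Nrp1 (0.839). Those most like Sgce were Igf2r (0.855), Fndc3b (0.846) and Cdkn1c (0.835). For Peg10 they were Actr1b (0.886), Hdlbp (0.845) and Uaca (0.836), for Mest Arhgap29 (0.841), Ndn (0.826) and Dlgap4 (0.822), and for Copg2 Ttc5 (0.907), Tgif1 (0.863) and Grcc10 (0.859). Igf2r and Cdkn1c, unlike Sgce, are expressed from the mother's copy, and Ndn, like Mest, from the father's. The points share the same 2 libraries and differ in depth, and the values are a description of these classes.

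Asb4 was lower in Tet-TKO than in WT host cells in most E8.5 classes. In allantois-like cells the Tet-TKO libraries 1 to 4 held 15.22, 30.83, 19.95 and 21.43 CPM and the host libraries 142 and 185.6 CPM, a log2 fold change of −2.89 ± 0.25 (SE; edgeR, 4 against 2 libraries), or 7.4-fold lower. These rest on 313, 630, 131 and 80 UMIs in the Tet-TKO libraries and on 1410 and 1102 in the host libraries. Even the highest Tet-TKO library was far below the lower host library.

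In mesenchyme-like cells Asb4 stood at 16.58, 13.05, 9.981 and 11.59 CPM in Tet-TKO and 92.09 and 131.1 CPM in WT host libraries (−3.13 ± 0.24, 8.73-fold lower). Pharyngeal mesoderm-like cells held 8.445, 12.85, 8.358 and 16.01 CPM against 84.08 and 80.58 CPM (−2.87 ± 0.24). Cluster 10 held 5.596, 7.81, 2.658 and 7.413 CPM against 77.17 and 135.3 CPM (−4.12 ± 0.35). The groups were apart in all of these mesodermal classes, and both pairs of Tet-TKO libraries lay on the same side.

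Cardiomyocyte-like cells had the smallest difference among the classes with high Asb4. They held 48.67, 49.54, 45.67 and 48.74 CPM in Tet-TKO and 136.5 and 136.8 CPM in WT host libraries (−1.55 ± 0.13, 2.94-fold lower). Asb4 thus had another order in Tet-TKO cells, in which cardiomyocyte-like cells (mean 48.16 CPM) came first, apart from allantois-like (21.86 CPM), mesenchyme-like (12.8 CPM) and pharyngeal mesoderm-like cells (11.42 CPM). The difference between classes in the size of the genotype difference was not tested.

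Asb4 was also lower in vascular and gut classes, which held less of it in the host. In endothelium-like cells the Tet-TKO libraries held 3.492, 3.016, 2.076 and 0 CPM (13, 12, 4 and 0 UMIs) against 33.1 and 31.76 CPM (−3.54 ± 0.32). Haematoendothelial progenitor-like cells held 2.65, 4.331, 1.733 and 2.927 CPM against 39.77 and 34.07 CPM (−3.57 ± 0.28). Gut-like cells held 1.127, 2.582, 0 and 0 CPM (5, 5, 0 and 0 UMIs) against 19.77 and 24.83 CPM (−4.27 ± 0.51). In cluster 5, led by Cdx4 and trunk Hox genes, Asb4 held 0.6507, 1.158, 1.14 and 3.443 CPM against 18.64 and 10.19 CPM (−3.22 ± 0.49). No Tet-TKO library of these 4 classes reached a host library.

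A gene was called where the Benjamini-Hochberg adjusted p of edgeR's quasi-likelihood test was at most 0.01 and the log2 fold change at least 1 in size. Asb4 passed the filter on low counts in 22 of the 31 classes and was called lower in the 9 described so far, from allantois-like cells to cluster 5, and higher in 0. Over all genes, 0.305% of 297400 tests of a gene in a class were called lower and 0.247% higher, and 0.151% of 15182 genes were called lower in 9 or more classes. Since earlier results of this contrast led to the choice of Asb4, nothing is read from that comparison. The log2 fold change was below 0 in all 22 tested classes, and over the 21 with an Asb4 UMI in a Tet-TKO library it had a median of −2.84 (range −4.43 to −1.08), against a median of 0.01 for all genes. Without WT host replicate 2 the calls fell to 4.

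Counting all 31 classes, including those under the filter, every Tet-TKO library was below both host libraries for Asb4 in 27 and the groups overlapped in 4. Of all tests, 13.2% had every Tet-TKO library below and 10.7% every one above. These shares, here and below, take in only genes that passed the filter in a class, which Asb4 did not in 9 of the 31. The 4 classes with overlap were erythroid-like, neural crest-like and presomitic mesoderm-like cells and cluster 42. Neural crest-like cells held 1.296, 7.809 and 4.044 CPM in 3 Tet-TKO libraries and 7.804 and 10.97 CPM in host libraries. Cluster 38 is led by a mix of myeloid (Fcer1g, Spi1), megakaryocyte (Plek, Pf4) and blood progenitor (Rab27b) markers. There Asb4 had 0 of 3294385 Tet-TKO UMIs. Against a floor of 3 UMIs over the group (0.911 CPM), the host level of 7.42 CPM put it at least 8.15-fold lower. Classes that were tested but not called included surface ectoderm-like (−3.84 ± 0.51), forebrain-like (−2.29 ± 0.46), spinal cord-like (−2.16 ± 0.28) and somite-like cells (−1.94 ± 0.37). Of these, surface ectoderm-like cells had a difference as large as most of the called classes, and the others a smaller one than 8 of the 9 called classes.

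**Figure D1:**
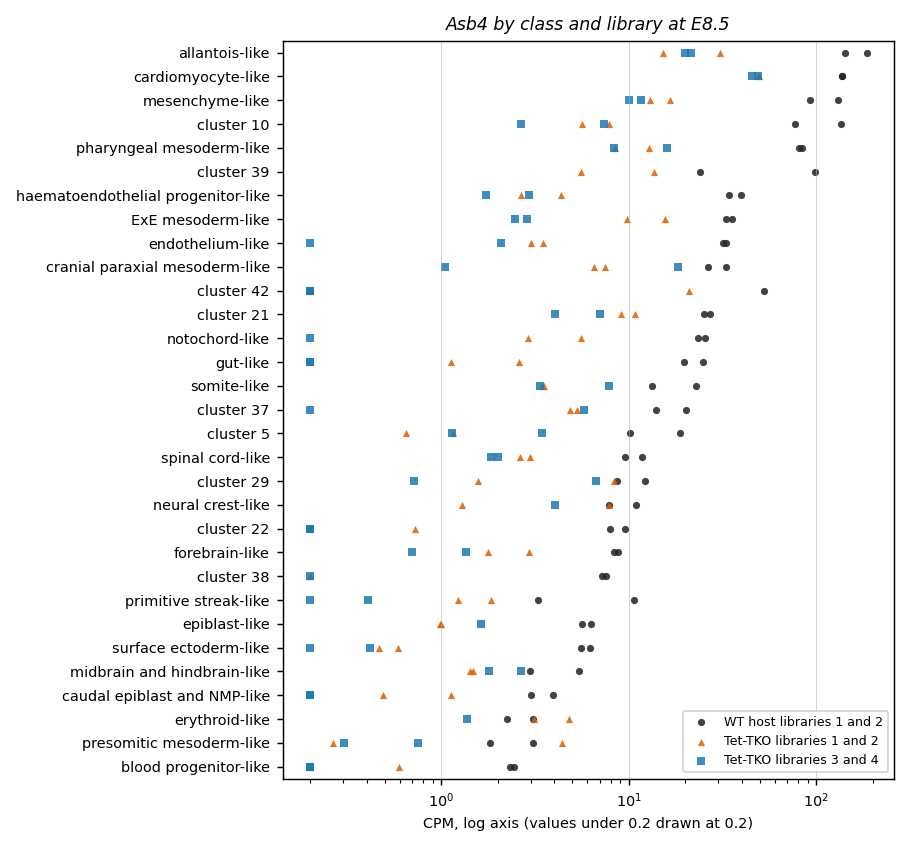
Asb4 level (CPM, log axis) in each of 31 E8.5 classes, ordered by the WT host mean, with 1 point per library: black circles for WT host, orange triangles for Tet-TKO libraries 1 and 2 and blue squares for libraries 3 and 4. Values under 0.2 are drawn at 0.2. In allantois-like cells the Tet-TKO points lie between 15.22 and 30.83 CPM and the host points at 142 and 185.6 CPM.

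Asb4 also differed inside single clusters of a class. Cluster 1, which made up 53.2 to 72.9% of allantois-like Tet-TKO cells and 57.1 and 66.6% of host cells, held 27.69, 43.5, 27.68 and 27.55 CPM against 229.4 and 260.5 CPM. Cluster 9, the allantois-like cluster led by Tbx4, Hoxa10 and Hoxa11, held 2.076, 1.82, 0.6756 and 2.217 CPM against 34.14 and 43.5 CPM. The cardiomyocyte-like cluster 26, led by Mab21l2, Sfrp5 and Tbx5, held 54.95, 53.16, 70.73 and 46.59 CPM against 162.8 and 176.1 CPM. The contractile cluster 34, led by Ttn, Actc1 and Myh6, held 33.72, 40.42, 21.87 and 51.75 CPM against 111.3 and 91.73 CPM. Within each of these 4 clusters the Tet-TKO libraries were all below the host libraries.

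Mesenchyme-like cells were made up differently in the genotypes. Cluster 6, led by Lum and Tdo2, held 70.9 to 81.8% of the Tet-TKO cells but 27.8 and 35% of the host cells, and cluster 27, led by Postn and Prss35, held the rest. Asb4 stood at 15.24, 6.43, 4.716 and 3.115 CPM against 41.81 and 86.48 CPM in cluster 6, and at 22.58, 29.96, 34.82 and 55.08 CPM against 118.3 and 145.9 CPM in cluster 27. The genotypes were apart for Asb4 in both clusters, and the host level was higher in cluster 27.

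The share of cells with an Asb4 UMI was compared after each cell was thinned to 5000 UMIs. Shallower cells were left out, 28 of 2571 Tet-TKO and 25 of 992 host allantois-like cells, 33 of 759 and 35 of 525 cardiomyocyte-like cells, and 20 of 1395 and 21 of 545 mesenchyme-like cells. Among allantois-like cells it was 7.09, 12.7, 9.69 and 9.26% in Tet-TKO and 36.2 and 42.9% in WT host libraries, and without thinning 18.9, 23.9, 39.3 and 47.9% against 56.3 and 59.5%. Among cardiomyocyte-like cells the thinned share was 20.4, 20.1, 17.6 and 18.2% against 44.3 and 43.1%, and among mesenchyme-like cells 7.32, 6.09, 4.89 and 6.08% against 33.8 and 42.9%. In blood progenitor-like cells, which hold little Asb4, it was 0 to 0.48% and 1.07 and 1.21%, with median depths of 15599.5 to 91815 UMIs in Tet-TKO and 17585 and 19886.5 in host cells. Fewer cells with an Asb4 UMI therefore went with the lower summed level. At such low counts the share depends largely on the summed level. It cannot tell fewer cells with Asb4 from less Asb4 RNA per cell. In each Tet-TKO library the thinned share in cardiomyocyte-like and allantois-like cells was above that in blood progenitor-like cells.

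Marker genes of some classes moved as well. The summed level of the cardiomyocyte markers in cardiomyocyte-like cells was 8263 to 15480 CPM in Tet-TKO and 19290 and 19420 CPM in host libraries, and that of the mesenchyme markers in mesenchyme-like cells 1502 to 2186 against 3444 and 4466 CPM. Endothelium markers summed to 1739 to 2252 CPM against 2592 and 2761 CPM in their class, haematoendothelial progenitor markers to 1228 to 1581 against 1662 and 1741 CPM, and pharyngeal mesoderm markers to 280.4 to 348.4 against 366.3 and 366.8 CPM. In these 5 classes, cardiomyocyte-like to pharyngeal mesoderm-like, the lists of 5 to 7 markers were detected in full, except for 1 pharyngeal mesoderm marker at 0 in a library of each genotype, and every Tet-TKO library was below the host. The 5 allantois markers in allantois-like cells overlapped, at 324.8 to 442.8 against 385 and 429.8 CPM. Gut-like cells held 105.7 to 647.5 CPM of ExE endoderm markers in Tet-TKO and 1444 and 2268 CPM in host libraries, with 0 to 3 of the 6 markers at 0 in a Tet-TKO library. Their 6 gut markers summed to 274.3 to 397.4 against 445.7 and 493.8 CPM, with at most 1 at 0 in a Tet-TKO library. Inside the allantois-like class, host Asb4 was higher in cluster 1 (229.4 and 260.5 CPM) than in cluster 9 (34.14 and 43.5 CPM). The leading genes of cluster 9 include the markers Hoxa10 and Hoxa11, so the marker sum says little about the cells with most Asb4. The part of marker differences in the Asb4 values of any class was not tested.

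Over all cells of a library, Asb4 stood at 7.489, 9.527, 6.373 and 7.728 CPM in Tet-TKO and 28.55 and 26.42 CPM in WT host libraries, a log2 fold change of −1.89 ± 0.19. Without erythroid-like and extraembryonic-like cells (here and below ExE ectoderm-like and ExE endoderm-like) it was 6.465 to 9.58 CPM against 38.0 to 39.48 CPM (−2.27 ± 0.18). In such sums of all cells, fewer cells of an Asb4-expressing type and less RNA per cell cannot be told apart, and host libraries held far more erythroid-like cells (1251 and 2244) than Tet-TKO libraries (at most 66). Asb4 was called lower in this comparison, as were 2.05% of 21074 genes, while 0.588% were called higher. The call was lost when Tet-TKO libraries 1 and 2 were summed to 1 sample and libraries 3 and 4 to another, with the log2 fold change at −1.9. Leaving out the first (−1.9) or the last (−1.85) of the 4 Tet-TKO libraries also lost it, as did leaving out host replicate 1 (−1.86) or 2 (−1.93).

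**Figure D2:**
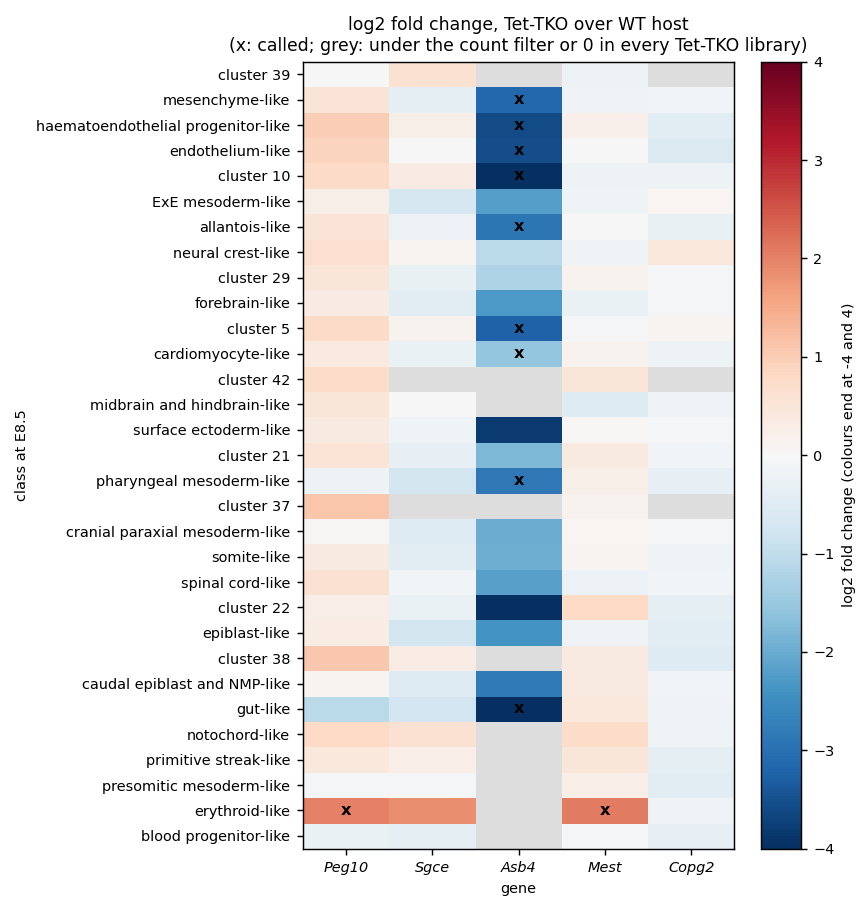
Log2 fold change (Tet-TKO over WT host, edgeR) of the 5 genes in the 31 E8.5 classes, with the colours ending at −4 and 4, x for a called difference and grey for a class under the count filter or with 0 in every Tet-TKO library. The Asb4 column is below 0 in every class shown, with 9 calls, and in the other columns the calls are Peg10 and Mest in erythroid-like cells.

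Peg10 and Sgce, which start 99 bases apart, did not share the Asb4 pattern. Peg10 was tested in all 31 classes, with a median log2 fold change of 0.47 (range −1.09 to 2.0) and 27 values above 0, but the libraries overlapped in 26 classes. The direction depended on the libraries: of 25 classes with all 4 Tet-TKO libraries, the mean of libraries 1 and 2 was below the host mean in 20, and that of libraries 3 and 4 above it in 22. It was called higher in erythroid-like cells alone and lower in 0 classes by edgeR and by DESeq2 (7 of 31 edgeR tests, in either direction, had an unadjusted p under 0.05). Sgce was tested in 29 classes and called in 0 by edgeR (6 at an unadjusted p under 0.05, and 1 called by DESeq2), with a median of −0.23 (range −0.77 to 1.87). All Tet-TKO libraries were above both host libraries in 4 classes for Peg10 and 1 for Sgce, and below in 1 and 7, where 10.7% of all tests were above and 13.2% below.

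Peg10 levels followed the pairs of Tet-TKO libraries. In allantois-like cells libraries 1 and 2 held 275.9 and 253.2 CPM, libraries 3 and 4 held 591.6 and 750.1 CPM, and the host libraries held 309.4 and 334 CPM. In spinal cord-like cells the values were 10.16 and 14.15, 60.77 and 78.52, and 25.95 and 27.2 CPM. The host libraries lay between the pairs in both classes, so a mean over the 4 Tet-TKO libraries describes neither pair.

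In cluster 10 Peg10 stood at 227.6 and 210.3 CPM in libraries 1 and 2, 627 and 639.5 CPM in libraries 3 and 4, and 232 and 248.4 CPM in the host. Cardiomyocyte-like cells held 56.03 and 63.98, 122.2 and 162, and 72.03 and 75.26 CPM in the same order. Mesenchyme-like cells held 122.6 and 103.8, 265.1 and 377.8, and 141.2 and 143.1 CPM. The first pair was again below the host libraries and the second above in these class sums. Inside the mesenchyme-like class, whose clusters are shared out differently between genotypes, the first pair was not below the host: cluster 6 held 111.5 and 78.77 CPM against 124.7 and 42.77 CPM, and cluster 27 held 172.4 and 167.9 CPM against 149.8 and 176.5 CPM.

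Libraries 3 and 4 were both above libraries 1 and 2 for Peg10 in 20 of the 22 classes with a Tet-TKO mean of at least 20 CPM, with a median log2 ratio of CPM + 1 of 1.28 (range −0.09 to 2.42), the pairs overlapping in gut-like cells and cluster 42. A Tet-TKO mean can reach 20 CPM through libraries 3 and 4 alone, as in spinal cord-like cells. In the 21 classes with a WT host mean of at least 20 CPM, which does not use these libraries, both were above in 19, and in all 25 classes with both pairs in 21. Of all genes with a Tet-TKO mean of at least 20 CPM in a class, 42% were above in libraries 3 and 4 and 28% below. No such share is given for genes chosen by the host mean or for all genes. The counts of 19 and 21 classes are therefore not read against it. On the same scale the allantois-like ratio was 2.53-fold (means 670.9 against 264.5 CPM), and 0.417% of 5522 genes had a ratio at least as high there. In spinal cord-like cells the ratio of CPM + 1 was 5.37-fold, but Peg10 passed 20 CPM there through libraries 3 and 4, so its rank is not read. The share with a ratio at least as high was 5.71% in endothelium-like, 17.9% in surface ectoderm-like and 64.7% in gut-like cells. Over all cells it was 4.58%. The pairs also differ in UMIs per cell, and the part of depth or of a batch in the Peg10 split was not tested. The pattern was found by looking at these values.

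The other 4 genes did not split in this way. Sgce was above in libraries 3 and 4 in 1 of 13 classes and below in 6, with a median log2 ratio of −0.24. Over all cells its means were 60.32 CPM in libraries 1 and 2 and 34.28 CPM in libraries 3 and 4. Allantois-like cells, where Sgce was highest, were 935 of 7039 and 1443 of 9545 cells in the first pair. In the second they were 145 of 2302 and 48 of 1008. Inside that class the pairs overlapped (means 215.8 and 183.3 CPM), and the part of cell shares in the all-cell values was not tested. Mest was above in 7 of 25 classes and below in 6, with a median of 0.03. Copg2 was above in 1 of 16. Asb4 reached 20 CPM in Tet-TKO cells in 2 classes, and the pairs overlapped in both. Over all 25 classes with both pairs, libraries 3 and 4 were below libraries 1 and 2 for Asb4 in 11, above in 1 and overlapped in 13. Some of the 11 rest on few UMIs, as in blood progenitor-like (1, 3, 0 and 0) and gut-like cells (5, 5, 0 and 0). No share over all genes is given for this set, so these counts are not read as a split. The mean of either pair was below the host mean for Asb4 in all 25. Peg10 and Sgce, whose starts are neighbours, hence did not differ between the pairs in the same way.

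A few clusters departed from the Peg10 pattern. In the contractile cardiomyocyte-like cluster 34 the Tet-TKO libraries held 30.51, 25.41, 26.43 and 28.38 CPM, with 43.16 and 23.96 CPM in the host, and showed no split. In cluster 26 of the same class the values were 66.75, 79.28, 223.1 and 257.6 CPM against 102.2 and 120 CPM. The split in cardiomyocyte-like cells thus lay in cluster 26. In gut-like cells Peg10 stood at 46.41, 24.78, 46.61 and 20.32 CPM against 81.39 and 79.81 CPM (−1.09 ± 0.27), below the host in each library. ExE endoderm markers in these cells were lower too, at 105.7 to 647.5 against 1444 and 2268 CPM, and host ExE endoderm-like cells held Peg10 at 230 CPM. Their part in the Peg10 difference was not tested.

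In vascular classes Peg10 was above the host in each Tet-TKO library. Endothelium-like cells held 62.59, 60.83, 105.3 and 108.5 CPM against 44.68 and 41.19 CPM (0.9 ± 0.23). Haematoendothelial progenitor-like cells held 169.3, 159, 376.1 and 431.7 CPM against 135.3 and 145.2 CPM (0.97 ± 0.37). The pairs remained apart in both classes. Over all cells Peg10 was 104.3, 91.78, 156.4 and 177.3 CPM against 83.6 and 57.96 CPM (0.8 ± 0.25), and without erythroid-like and extraembryonic-like cells 92.25 to 177.9 against 71.14 to 84.26 CPM.

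**Figure D3:**
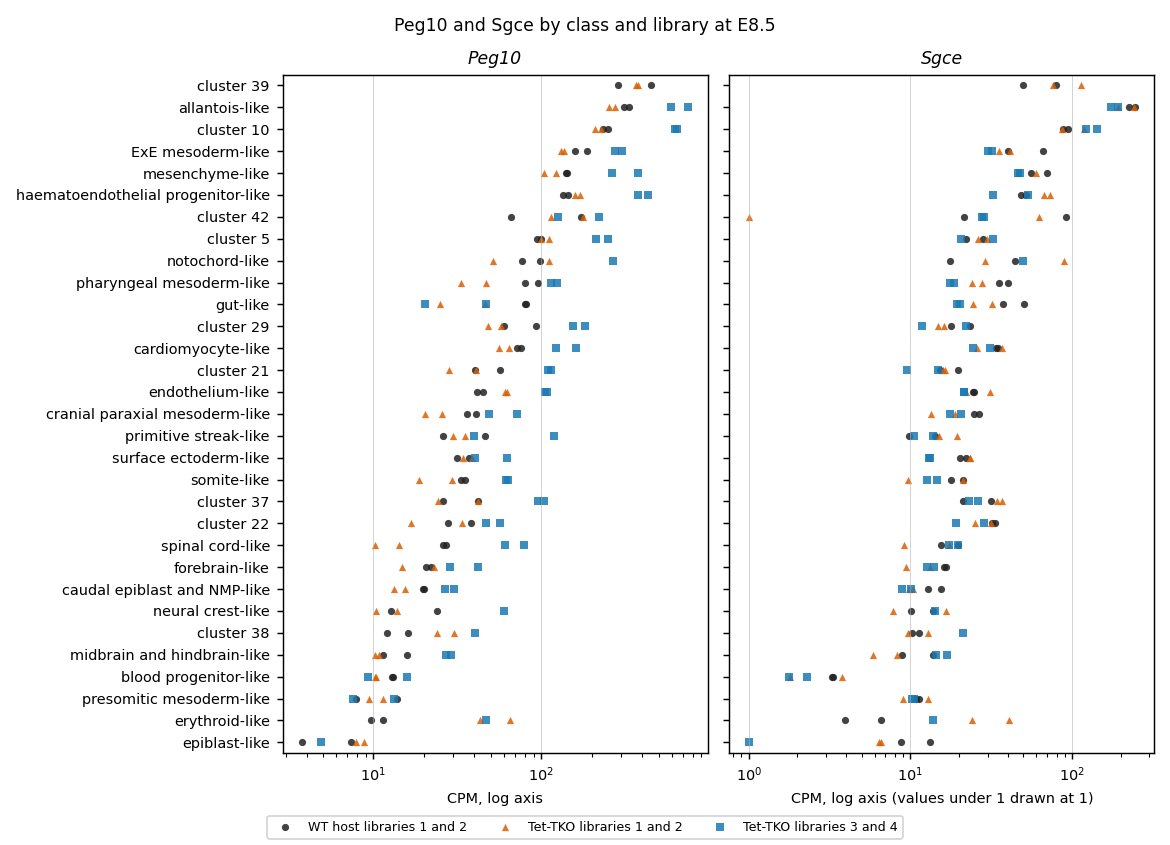
Peg10 (left) and Sgce (right) levels in CPM on log axes for 31 E8.5 classes ordered by the WT host mean of Peg10, with 1 point per library and the same symbols as for Asb4; Sgce values under 1 are drawn at 1. For Peg10 the blue squares of Tet-TKO libraries 3 and 4 lie to the right of the orange triangles of libraries 1 and 2 in most classes, as in allantois-like cells (591.6 and 750.1 against 275.9 and 253.2 CPM), and for Sgce they do not.

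Sgce was apart between genotypes in 8 classes and overlapped in the class where it was highest. In allantois-like cells the Tet-TKO libraries held 190.8, 240.9, 173.5 and 193.2 CPM and the host libraries 224.5 and 244.9 CPM (−0.23 ± 0.16), with overlap. Gut-like cells held 31.77, 24.27, 20.12 and 19.3 CPM against 50.52 and 37.61 CPM (−0.77 ± 0.24). Pharyngeal mesoderm-like cells held 27.7, 24.02, 18.65 and 17.67 CPM against 40 and 35.16 CPM (−0.74 ± 0.25). These last were classes in which each Tet-TKO library was below the host, without a call. ExE endoderm markers were lower in Tet-TKO gut-like cells too, and host ExE endoderm-like cells held Sgce at 42.2 and 45.58 CPM. The part of such markers in the gut-like Sgce difference was not tested. The sum over all cells was 54.81, 65.84, 35.2 and 33.36 CPM against 39.99 and 29.19 CPM (0.4 ± 0.36), with overlap.

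Mest kept close to the host level in the classes where it was most abundant. Mesenchyme-like cells held 2082, 2279, 1874 and 1697 CPM against 2020 and 2192 CPM, and endothelium-like cells 2365, 2258, 1776 and 1577 CPM against 2046 and 1917 CPM. Over the 31 tested classes the median log2 fold change was 0.1 (range −0.53 to 2.09), and the libraries overlapped in 23. All Tet-TKO libraries were above the host in 5 of 31 classes and below in 3, where 10.7% of all tests were above and 13.2% below. The single call was higher, in erythroid-like cells.

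Where Mest was apart, the direction depended on the class. In midbrain and hindbrain-like cells the Tet-TKO libraries held 560.2, 584.9, 516 and 519.7 CPM against 768.6 and 816.3 CPM (−0.53 ± 0.13). In gut-like cells they held 213.6, 264.9, 217.9 and 223.5 CPM against 153.5 and 205.2 CPM (0.42 ± 0.17). Mest was lower in the neural class and higher in the endodermal one, and neither was called. The gut-like difference lay in cluster 19, with 248.7, 369.7 and 346 CPM against 164.7 and 184.1 CPM, whereas cluster 25 held 167.1, 84.31 and 88.67 CPM against 140.6 and 223.2 CPM. With doublet-scored cells removed, gut-like cells of Tet-TKO library 1 held 141.8 CPM and overlapped with the host libraries.

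Over all cells Mest was 1016, 1054, 914.7 and 857.7 CPM against 596.7 and 660.6 CPM (0.54 ± 0.17), above the host in each Tet-TKO library. Without erythroid-like and extraembryonic-like cells, which hold little Mest and were mostly host cells, it was 861.1 to 1062 CPM against 828.1 to 951 CPM (0.15 ± 0.15), with overlap. Copg2 over all cells was 20.84, 21.23, 21.62 and 23.6 CPM against 22.82 and 21.41 CPM (−0.1 ± 0.09). Copg2 was tested in 28 classes and called in 0 by edgeR (1 at an unadjusted p under 0.05) and in 0 by DESeq2, with a median of −0.16 (range −0.57 to 0.41). It overlapped in 24 of 31 classes and was below the host in 7, where 13.2% of all tests were below, among them endothelium-like cells with 14.51, 15.33, 14.01 and 14.74 CPM against 23.41 and 20.12 CPM (−0.57 ± 0.2).

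**Figure D4:**
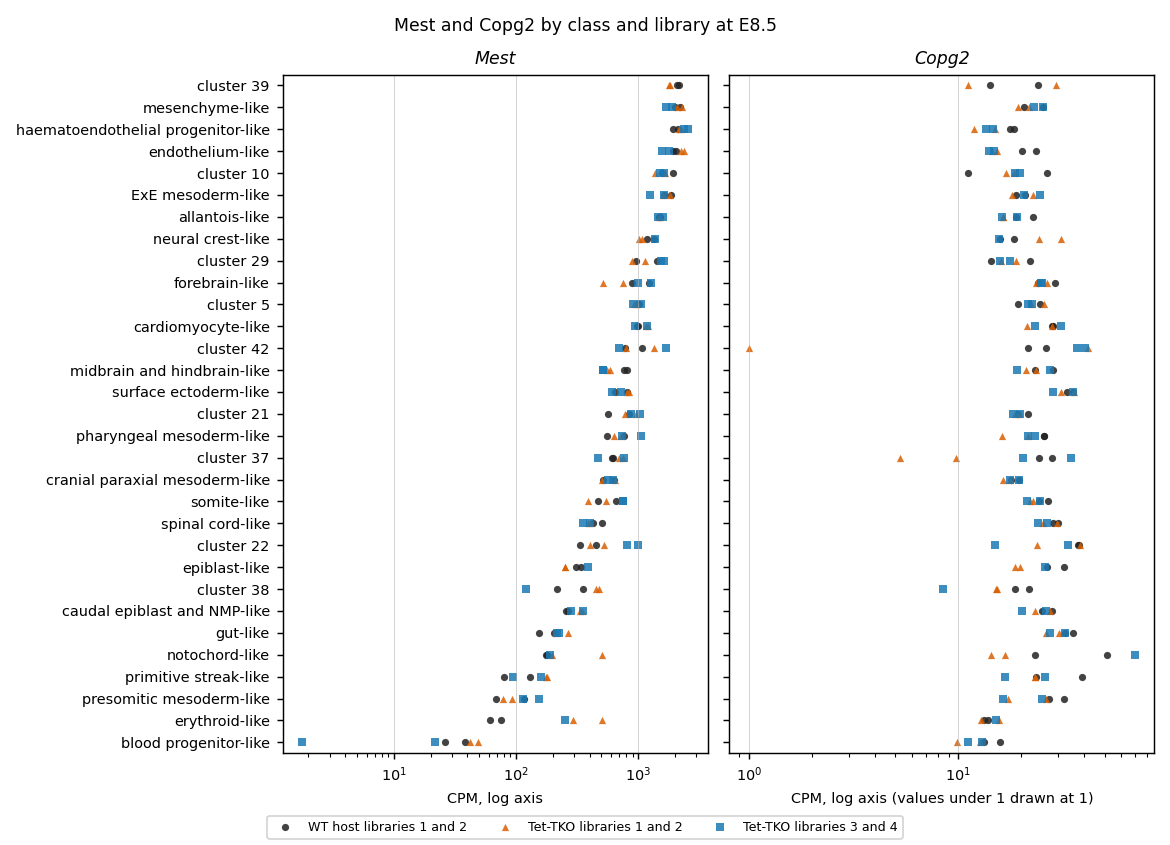
Mest (left) and Copg2 (right) levels in CPM on log axes for 31 E8.5 classes ordered by the WT host mean of Mest, with 1 point per library and the same symbols as for Asb4; Copg2 values under 1 are drawn at 1. In most classes the points of both genotypes overlap, and in erythroid-like cells the Tet-TKO points for Mest (253.5 to 505.5 CPM) lie above the host points (61.13 and 75.59 CPM).

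The calls in erythroid-like cells rest on few Tet-TKO cells, 11, 66 and 24 in 3 libraries, of which 4, 29 and 4 were scored as doublets. There Peg10 stood at 65.52, 43.42 and 46.72 CPM against 11.46 and 9.63 CPM (2.0 ± 0.18). Mest stood at 505.5, 293.5 and 253.5 CPM against 61.13 and 75.59 CPM (2.09 ± 0.27), and Sgce at 40.56, 24.12 and 13.74 CPM against 6.585 and 3.957 CPM (1.87 ± 0.39, not called). The erythroid markers summed to 27390, 46040 and 61060 CPM in these Tet-TKO libraries and to 90390 and 143900 CPM in the host, and the mesenchyme markers to 49.92, 124.6 and 65.27 CPM against 49.22 and 42.9 CPM. With doublet-scored cells removed, library 1 had too few cells and libraries 2 and 3 held 7.212 and 7.765 CPM of Peg10 against 6.46 and 4.435 CPM, and 28.85 and 53.38 CPM of Mest against 15.4 and 19.07 CPM. Sgce then stood at 1.803 and 0.9706 CPM against 2.866 and 1.489 CPM, no longer above the host. The calls of Peg10 and Mest were lost.

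At E7.5, with 1 library per genotype, there is no replicate check and no test, and values carry 95% exact Poisson intervals that cover counting error only. Asb4 over all cells was 7.962 CPM (7.432 to 8.52) in Tet-TKO and 16.62 CPM (15.85 to 17.43) in WT host cells. Without ExE ectoderm-like and ExE endoderm-like cells, which were mostly host cells, it was 8.001 against 23.37 CPM. The Tet-TKO interval for Asb4 lay below the host interval in 16 of the 20 classes with more than 3 UMIs in either library, above in 0 and overlapped in 4. Over all genes and classes 5.17% of intervals lay below and 3.64% above.

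The highest Asb4 level at E7.5 was in cluster 21, led by Kdr, Etv2 and Six2, with 31.29 CPM (27.05 to 36.0) in Tet-TKO and 134.9 CPM (111.8 to 161.3) in host cells. Cluster 2, led by the smooth muscle genes Acta2 and Tagln, held 11.59 CPM (9.782 to 13.64) against 62.94 CPM (56.56 to 69.86). Cardiomyocyte-like cells held 20.47 against 56.87 CPM. Haematoendothelial progenitor-like cells held 7.375 against 51.27 CPM, gut-like cells 2.272 against 29.49 CPM, and epiblast-like cells 0.4708 against 3.571 CPM. In this pair of libraries Asb4 was thus lower in Tet-TKO in several mesodermal classes. It was also lower in caudal epiblast and NMP-like cells, at 4.51 against 8.318 CPM (64 against 86 UMIs). Some differences rest on few Tet-TKO UMIs: 4 against 102 in gut-like, 6 against 10 in epiblast-like and 2 against 42 in allantois-like cells.

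The other genes had mixed directions at E7.5. Mest was above the host interval in 8 of 22 classes and below in 4, with 163.9 against 47.05 CPM in notochord-like, 204.5 against 95.13 CPM in gut-like and 477 against 341.5 CPM in cardiomyocyte-like cells, but 825.1 against 1006 CPM in allantois-like cells. Peg10 was below in 7 of 21 classes, as in allantois-like cells (148 against 235.9 CPM), and above in 1, caudal epiblast and NMP-like cells (47.42 against 31.05 CPM). Sgce was below in 5 of 22 classes and above in 0, and Copg2 overlapped in all 21. The gut-like class had higher Mest and lower Asb4 and Peg10 (8.521 against 28.34 CPM) in Tet-TKO cells at E7.5, the same directions as in the gut-like sums at E8.5.

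**Figure D5:**
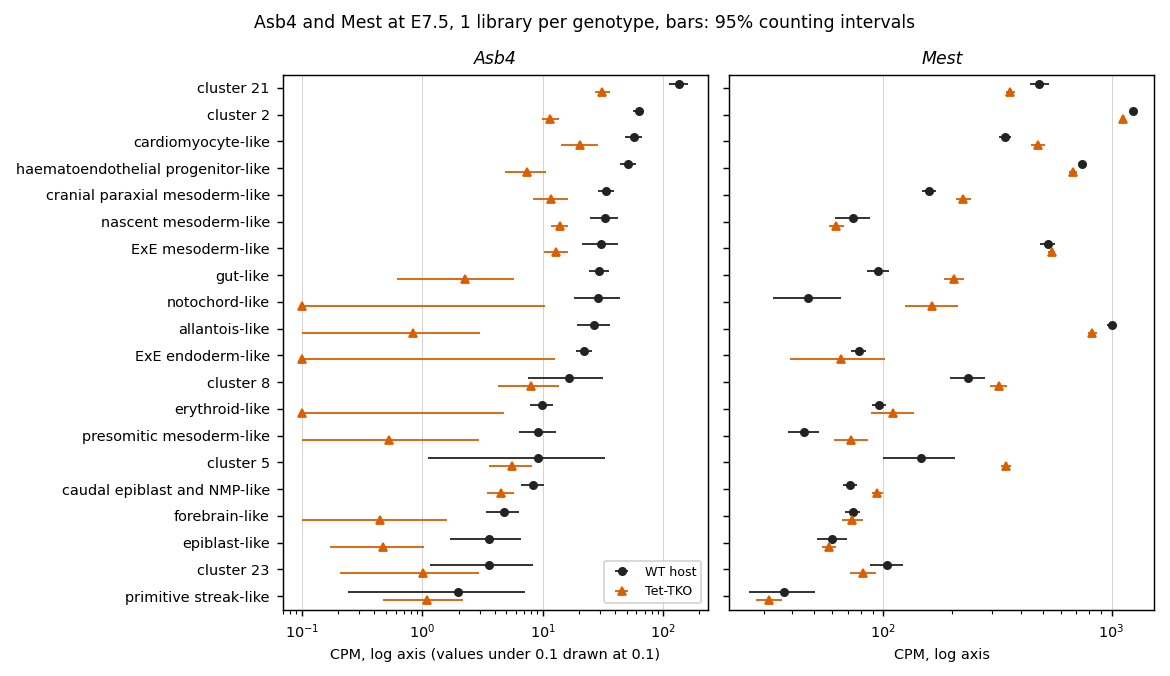
Asb4 (left) and Mest (right) levels at E7.5 in CPM on log axes, with 1 library per genotype (circle, WT host; triangle, Tet-TKO) and 95% Poisson intervals, in 20 classes; Asb4 values under 0.1 are drawn at 0.1. The Asb4 intervals are apart, with Tet-TKO lower, in 16 classes, as in cluster 21 (31.29 against 134.9 CPM), and overlap in 4, while Mest lies on either side.

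The neighbours of Peg10 were measured from a list of 9 genes of the same imprinted region, of which 7 could be tested in a class and 9 over all cells. Tfpi2, a maternally expressed protease inhibitor gene on the far side of Sgce, was called lower in endothelium-like cells, with 0.537, 0.754, 0.519 and 0 CPM in Tet-TKO and 6.62 and 5.35 CPM in host libraries (−3.29 ± 0.52, edgeR adjusted p = 0.0067). Over all cells Tfpi2 (−3.5 ± 0.39, edgeR adjusted p = 0.0039) and Pon3, a paraoxonase gene between Peg10 and Asb4 (−1.88 ± 0.2, adjusted p = 0.0033), were called lower, 2 of 9 where 2.05% of all genes were. As for Asb4, cell make-up and RNA per cell cannot be told apart in these sums, and host libraries held extraembryonic-like cells that Tet-TKO libraries largely lacked. Pon2 (−0.96 ± 0.16, edgeR adjusted p = 0.014) and Casd1 (0.67 ± 0.13, adjusted p = 0.021) missed the threshold. Pon1, Pdk4, Dync1i1, Calcr and Ppp1r9a had log2 fold changes of −0.55, −0.14, −0.66, 0.36 and 0.43, with edgeR adjusted p from 0.11 to 0.85. Casd1 and Ppp1r9a, like Peg10, were higher in libraries 3 and 4 than in libraries 1 and 2 over all cells. Casd1 stood at 29.6, 31, 42.4 and 40.9 CPM in Tet-TKO against 21.6 and 20.6 CPM in host libraries. Ppp1r9a stood at 19.1, 20.4, 34.8 and 34.2 against 19 and 18.5 CPM. Pon2 was lower in libraries 3 and 4, at 15.9, 17.3, 14.7 and 13.5 against 29.5 and 27.3 CPM. The remaining neighbours had low levels in every library. So 1 of the 7 neighbours was called lower in a class, where 2.33% of all genes were called lower and 1.46% higher in at least 1 class, and 0 were called higher. Of 11 genes near Mest that the files hold, 8 were tested in a class and 10 over all cells, and 0 were called by edgeR or DESeq2 (edgeR adjusted p over all cells from 0.11 to 0.92, with 5 of 10 at an unadjusted p under 0.05).

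Imprinted genes elsewhere in the genome gave the setting. Of 22 other genes expressed from the father's copy, 20 were tested in a class, and 8 were called higher and 0 lower in at least 1 class, where 1.46% of all genes were called higher and 2.33% lower. By DESeq2, 79 of the tests of a listed gene in a class were called higher and 2 lower. Neither the number of DESeq2 tests nor the share over all genes is given for that tool, so nothing is read from these counts. The list had a median over genes of 0.63 for their median log2 fold changes against 0.0 for all genes. Snrpn, an RNA-processing protein gene of the Prader-Willi region, was called higher in 18 classes, with 289, 248, 344 and 378 CPM against 98.5 and 86.1 CPM in allantois-like cells (1.75 ± 0.17, edgeR adjusted p = 0.0011). Zdbf2 was called higher in 14 classes, Plagl1, a zinc finger transcription factor gene, in 5, and Ndn, the gene next to Magel2, in 3. For each of these genes, Snrpn included, the classes took in erythroid-like cells, where doublet-scored cells were frequent. Over all cells Snrpn (1.76 ± 0.11, adjusted p = 0.001), Zdbf2 (1.91 ± 0.21, adjusted p = 0.0039), Plagl1 (1.79 ± 0.18, adjusted p = 0.0029), Ndn (1.36 ± 0.12, adjusted p = 0.0018) and Magel2 (1.64 ± 0.12, adjusted p = 0.0014) were called higher by edgeR, 5 of the 21 tested there, where 0.588% of all genes were called higher. Peg10, Sgce and Mest, expressed from the same parental copy, had medians of 0.47, −0.23 and 0.1, the sign for Peg10 depending on the pair of Tet-TKO libraries.

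Of 20 other genes expressed from the mother's copy, 18 were tested in a class, 4 were called higher and 3 lower in at least 1 class (of all genes, 1.46% were called higher and 2.33% lower), and the median was −0.08. H19, a noncoding RNA gene, was lower in gut-like cells, the class in which ExE endoderm markers differed, with 106, 100, 69.2 and 43.7 CPM against 420 and 418 CPM (−2.28 ± 0.28, edgeR adjusted p = 0.0031). Phlda2, a growth-restraining placental gene, was lower in ExE mesoderm-like cells (−1.93 ± 0.26, edgeR adjusted p = 0.0051), and Cdkn1c, a cell-cycle inhibitor gene, in mesenchyme-like cells (−1.02 ± 0.13, adjusted p = 0.0059). Phlda2, Cdkn1c, Rian and Meg3 were higher in erythroid-like cells, where Peg10 and Mest were also called and doublet-scored cells were frequent, and Cdkn1c also in cluster 22. Over all cells 0 of the 20 were called by edgeR or DESeq2, with 8 at an unadjusted p under 0.05 in edgeR.

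Lists of genes related to the 5 by function held 1 called gene. Ldoc1, like Peg10 a Gag gene derived from a retrotransposon, was called lower in mesenchyme-like and surface ectoderm-like cells, and stood in the latter at 1.31, 1.64, 0.597 and 1.04 CPM against 21 and 25.6 CPM (−4.25 ± 0.29, edgeR adjusted p = 0.00086). It was 1 of 8 such genes tested, where 2.33% of all genes were called lower in at least 1 class. Of 8 COPI coat subunits related to Copg2, 6 genes of the sarcoglycan and dystroglycan complex related to Sgce and 5 cullin 5 ligase partners of SOCS box proteins such as Asb4, 0 were called in a class or over all cells by edgeR or DESeq2. At an unadjusted p under 0.05, edgeR had 10 of 234 class tests for the COPI genes, 12 of 99 for the sarcoglycan genes and 3 of 151 for the ligase partners. No share over all genes is given for unadjusted p, here or above, so these counts are not read as an excess or a lack.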

How the data were processed

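Single-cell 3′ RNA-seq libraries (10x Genomics) were analysed from the UMI counts per gene and cell that the authors deposited, which they made with Cell Ranger on the mm10 genome and an Ensembl annotation. These values are raw counts with no normalization. The members and gene lists used here were chosen with earlier results of these data known.

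Cells were kept from 1500 UMIs upward where mitochondrial genes gave no more than 30% and ribosomal genes no more than 35% of them. Each stage was clustered on 2500 variable genes, without the 5 genes, the listed genes, Tet1, Tet2, Tet3, tdTomato and sex-linked markers, using 50 principal components, mutual nearest neighbours (k = 20) between libraries, a graph of 15 neighbours and Leiden at resolution 2 (scanpy 1.11.5, leidenalg 0.10.2). Clusters took a name from at least 3 raised markers that led those of the next class. Doublets were scored with Scrublet and kept. For each library, counts of a class were added up where it had 10 cells or more, and tested with edgeR 4.0.16 (TMM, filterByExpr, quasi-likelihood, Benjamini-Hochberg over all genes of a class). CPM were computed from the same sums. The tests were checked on simulated data. DESeq2 1.42.0, other filters, scalings, clusterings and sets of libraries were tried as alternatives. At E7.5, 1 library per genotype allowed no test.

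Depth was 65601218 to 136982886 UMIs per library, and a floor is 3 UMIs of a total. The genes named are the 5 members, their tested neighbours, at most 4 genes in each direction per list by the number of classes called, and the 3 genes most like each member among those of at least 10 CPM in a class.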

Additional observations from a re-analysis of the deposited data

Results flagged for a closer look

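In 130 groups of 4 Tet-TKO libraries at E8.5, 1 per gene and class, 12 had a library whose gap to the nearest other exceeded Dixon's 95% critical value for 4 samples, which chance gives in about 1 group of 20.

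For Asb4, library 4 stood at 7.827 CPM in somite-like cells (others 3.361 to 3.513) and library 1 at 4.384 CPM in presomitic mesoderm-like cells (others 0.2632 to 0.7516). Asb4 was at 0 in library 3 of cluster 37 (others 4.876 to 5.791 CPM), but the others held 1, 1 and 2 UMIs. Library 1 alone held Asb4 UMIs in cluster 22 (0.7244 CPM) and cluster 42 (20.82 CPM), 2 UMIs in each. For Peg10, library 4 stood apart in primitive streak-like cells with 118.7 CPM (others 29.75 to 39.67) and in blood progenitor-like cells with 15.89 CPM (others 9.226 to 10.36). For Sgce, library 2 was above the others in mesenchyme-like cells with 59.84 CPM (others 46.09 to 47.54) and in endothelium-like cells with 31.17 CPM (others 21.28 to 22.03). Mest was below the others in library 3 of cardiomyocyte-like cells, with 935.5 CPM (others 1163 to 1201). Copg2 stood at 19.02 CPM in library 4 of allantois-like cells (others 16.15 to 16.44) and at 0 of 44058 UMIs in library 2 of cluster 42 (others 36.81 to 41.64 CPM, from 4, 4 and 7 UMIs). At such counts a 0 cannot be told apart from a level like that of the others.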

How the results depend on the processing

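Of the values under another setting, 173 of those that answer a comparison kept their direction and side of the threshold or moved little, 28 moved, 2 reversed, 5 were weaker and 1 was stronger, and of those of single classes 167 stayed and 16 lost the call. The classes in which Asb4 was called lower (9) became 20 with no filter on low counts, 16 with only Tet-TKO libraries 1 and 2, 17 with only libraries 3 and 4, and 4 to 10 when leaving out each library, the 4 without WT host replicate 2. Settings with only 1 pair of Tet-TKO libraries were chosen after seeing the data. No share of all genes called is given for the other settings, so a larger count is not read as a stronger result. Peg10, called lower in 0 classes, had 1 with no filter, 2 with only libraries 1 and 2 and 1 with only libraries 3 and 4. Called higher in 1 class, it had 0 with doublets removed, 0 with at least 30 cells per sum, 0 with no correction between libraries and 8 with only libraries 3 and 4. Mest, called higher in 1 class, had 0 under those first 3 settings. Sgce, called in 0 classes, was called lower in 2 with only libraries 3 and 4, and higher in 1 under DESeq2, with no filter and with only libraries 1 and 2, and in 0 to 1 when leaving out each library (1 without Tet-TKO replicate 3). Over all cells, with only libraries 3 and 4, Peg10 went from 0.8 to 1.06, now called, and Sgce from 0.4 to −0.19, the reverse direction. Asb4 over all cells (−1.89) was −1.9 with the pairs summed, where its call was lost, and ranged from −2.04 to −1.78 when leaving out each library, with the call lost without 4 of the 6 libraries in turn. At E7.5 the log2 ratio over all cells went without ExE ectoderm-like and ExE endoderm-like cells from −0.5 to 0.17 for Peg10 (reversed), −0.65 to −0.46 for Sgce, −1.06 to −1.55 for Asb4 and 0.68 to 0.24 for Mest, and with only cells whose tdTomato UMIs match the sort to −0.63 for Peg10 and 0.61 for Mest. The Sgce level in allantois-like host cells was 234.7 CPM, and 216.6 CPM at Leiden resolution 1. The cause of these changes was not tested. Depth limits Asb4 in classes where Tet-TKO libraries held 0 to 5 UMIs.

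Replicate numbers are shared by Tet-TKO and WT host libraries 1 and 2. Deviations from the group means correlated at 0.47 for number 1 and −0.18 for number 2 (7489 genes). With 2 host libraries the host deviations mirror each other, so Tet-TKO library 2 stood at 0.18 with host library 1. The Tet-TKO mean also took in the other pair of libraries, from which libraries 1 and 2 stood apart. These correlations therefore cannot decide whether the numbers pair the libraries. With the replicate block, on libraries 1 and 2 of each genotype, Asb4 was called lower in 18 of 25 classes, Peg10 lower in 1 and Sgce higher in 1. The share of all genes called in that fit is not given, so nothing is read from these counts.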
